A study of Mus musculus with 23 samples.

Results

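The windows described here are 150 bp stretches of the mouse autosomes where the prefrontal cortex of DBA/2J (D2) control mice gave clearly fewer methylated fragments than that of C57BL/6J (B6) control mice, but still gave some. They were chosen on the control mice alone. A window was kept when its mean log2 RPKM (log2 of reads per kilobase, scaled to library size) over the D2 controls was at least 2.0 and lay at least 1.0 below the mean over the B6 controls. This left 11586 of 195677 autosomal windows (5.92%), out of 210191 windows in all. Another 6587 autosomal windows were lower in D2 controls by 1.0 or more with a D2 mean under 2.0, so 63.8% of the windows that were lower by this amount kept the D2 level asked for. The opposite selection, with a B6 mean of at least 2.0 lying 1.0 or more below D2, left 3242 windows.

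The 23 mice were assayed by MBD-seq. The B6 controls were 3 males and 2 females aged 145 days, and the D2 controls 3 males and 3 females aged 147 to 196 days. The CORT+DFP mice were 3 males and 3 females of B6 aged 145 to 226 days, and 3 males and 3 females of D2 aged 147 to 196 days. They drank corticosterone (20 mg%) for 7 days, received DFP (diisopropyl fluorophosphate, a surrogate of the nerve agent sarin) at 4.0 mg per kg by intraperitoneal injection, and then drank corticosterone every other week. The controls had saline and no corticosterone. Both strains are inbred and carried no engineered allele. The tissue was a piece of cortex with all its cell types, so fewer cells with a methylated window and less methylation in each cell cannot be told apart.

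In mammals, most CpG dinucleotides of bulk DNA carry a methyl group on the cytosine, while CpGs in active promoters usually do not. In MBD-seq, the methyl-CpG-binding protein MBD2 pulls down methylated fragments, so the reads in a window rise with its methylation and with its number of CpGs. Reads of both strains were placed on the reference genome, which was made from C57BL/6J. Fewer reads in D2 can therefore go with less methylation, with lost CpGs, with fewer copies of a sequence or with reads that no longer align to it, and these cannot be told apart from read numbers.

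Some of the windows lie in coding exons, where the sequence could be read from GENCODE transcripts on GRCm38 (mm10). The 7 sequences below were picked after their values were seen. They show coding windows with and without an identical run in other exonic sequence, and 1 promoter. The first 6 are whole windows on the plus strand, written 5′ to 3′ with CpGs in capitals. A pair comes from Tmem267, a transmembrane protein gene, at chr13:119492851-119493000 and chr13:119606851-119607000, with 8 and 10 CpGs. The next comes from Flg, which encodes the skin barrier protein filaggrin (chr3:93288301-93288450, 8 CpGs). Another comes from Tescl, a relative of the calcium-binding protein tescalcin (chr7:24333301-24333450, 14 CpGs as deposited and 13 in the printed sequence). They are followed by Neurl1b, an E3 ubiquitin ligase of the Notch pathway (chr17:26438851-26439000, 29 CpGs), and Camkk1, a kinase that activates calmodulin-dependent kinases (chr11:73033801-73033950, 8 CpGs). The last sequence is the 250 bases upstream of the start of Haao, an enzyme of the kynurenine pathway, from the RefSeq promoter table (GRCm38.p6, chr17:83846791-83847040, minus strand). The window measured there, chr17:83846701-83846850, covers the last 60 of these bases.
Tmem267, first window: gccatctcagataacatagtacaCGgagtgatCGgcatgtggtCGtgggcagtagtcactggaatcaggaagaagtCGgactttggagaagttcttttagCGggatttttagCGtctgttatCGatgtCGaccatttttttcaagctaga
Tmem267, second window: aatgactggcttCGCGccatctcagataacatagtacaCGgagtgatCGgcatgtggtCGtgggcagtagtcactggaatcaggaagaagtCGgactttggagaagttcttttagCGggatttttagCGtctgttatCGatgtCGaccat
Flg: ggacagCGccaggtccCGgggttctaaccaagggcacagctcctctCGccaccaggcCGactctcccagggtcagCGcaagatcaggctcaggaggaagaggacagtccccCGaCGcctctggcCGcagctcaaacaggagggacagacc
Tescl: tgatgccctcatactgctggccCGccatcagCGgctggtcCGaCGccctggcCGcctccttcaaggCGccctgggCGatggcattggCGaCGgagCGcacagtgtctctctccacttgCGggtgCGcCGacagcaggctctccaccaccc
Neurl1b: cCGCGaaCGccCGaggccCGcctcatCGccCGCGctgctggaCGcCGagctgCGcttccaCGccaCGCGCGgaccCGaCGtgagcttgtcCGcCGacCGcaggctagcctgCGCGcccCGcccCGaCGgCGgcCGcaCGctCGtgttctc
Camkk1: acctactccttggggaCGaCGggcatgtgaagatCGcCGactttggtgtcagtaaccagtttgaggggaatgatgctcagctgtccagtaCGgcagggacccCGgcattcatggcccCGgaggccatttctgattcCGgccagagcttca
Haao: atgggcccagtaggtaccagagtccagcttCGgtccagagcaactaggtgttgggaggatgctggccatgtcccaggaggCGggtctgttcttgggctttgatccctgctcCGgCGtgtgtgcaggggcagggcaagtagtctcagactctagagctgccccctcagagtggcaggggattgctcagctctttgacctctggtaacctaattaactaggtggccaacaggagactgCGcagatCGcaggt

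The Tmem267 windows lie 114 kb apart in the same gene, and bases 1 to 135 of the first are identical to the second from its base 16 on. The Flg window shares an identical run of 50 bases or more with 15 other tested windows. The Tescl, Neurl1b and Camkk1 windows shared no such run with another exon that was tested or with a transcript of another gene. The Neurl1b window had a GC content of 77.3%.

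The tested windows held 9776537 to 18428398 reads in a mouse. The median chosen window had 32 to 63 reads in a B6 mouse and 11 to 23 reads in a D2 mouse. The median log2 RPKM over the chosen windows was 4.59 to 4.70 in B6 controls, 4.58 to 4.76 in B6 CORT+DFP, 3.04 to 3.11 in D2 controls and 3.04 to 3.20 in D2 CORT+DFP mice. Over all autosomal windows the medians lay between 4.38 and 4.50 in every mouse, so the strains lay apart at the chosen windows and overlapped over the autosomes at large. The sample names fall into 3 sets. Set 1 held 3 B6 and 2 D2 CORT+DFP mice and 3 D2 controls. Set 2 held 3 B6 CORT+DFP mice and all 5 B6 controls, and set 3 held 4 D2 CORT+DFP mice and 3 D2 controls. In the controls that chose the windows, strain and set cannot be told apart, because no set held controls of both strains.

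The question for the CORT+DFP mice, which the selection did not use, was how many of the windows were lower in D2 there as well. At 11567 of the 11586 windows (99.8%) D2 CORT+DFP mice were lower than B6 CORT+DFP mice at a Benjamini-Hochberg adjusted p under 0.05 in limma, with sex and age as covariates. Over all windows tested, 15.9% were called lower in this comparison. Every D2 CORT+DFP mouse lay below every B6 CORT+DFP mouse at 11113 of the windows (95.9%), against 12% of all windows. The fitted D2 minus B6 difference had a median of -1.55 on the log2 scale, with a median standard error of 0.18, while the median over all autosomal windows was 0.02. The middle 90% of the chosen windows lay between -2.60 and -0.87. By the means alone, 10327 windows (89.1%, against 9.31% of autosomal windows) were lower by 1.0 or more and 2632 (22.7%, against 4.68%) by 2.0 or more.

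**Figure D1:**
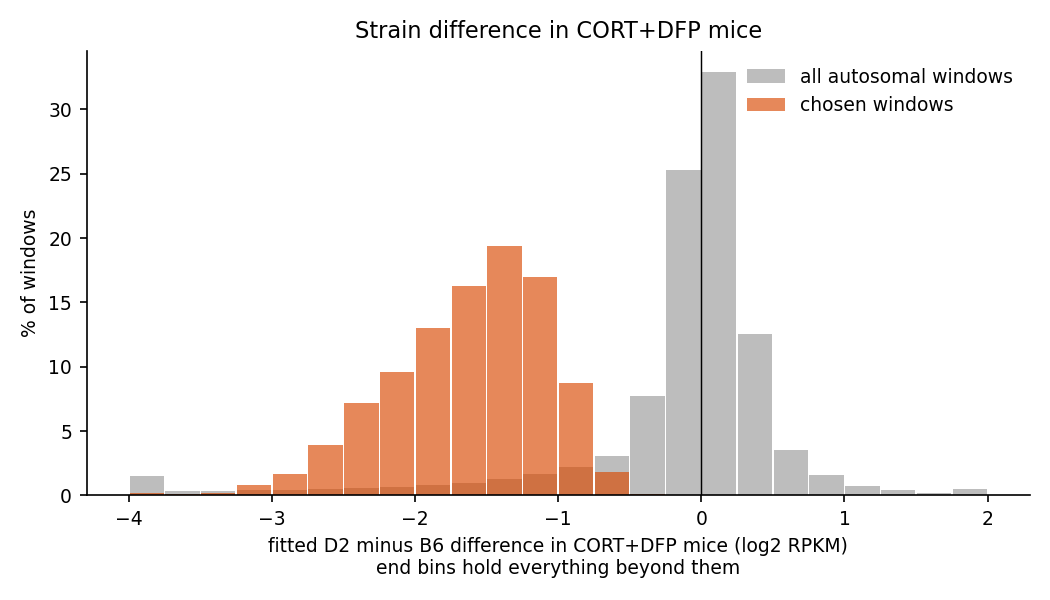
Percent of windows by the D2 minus B6 difference in log2 RPKM in CORT+DFP mice (6 and 6), for the chosen windows and for all autosomal windows. The chosen windows centre on -1.55 and the autosomal windows near 0.

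Sets were compared because strain and set overlap in part. These fits had sex but not age as a covariate. Within set 1 alone, with 3 B6 and 2 D2 CORT+DFP mice, 11127 windows (96.0%, against 13.1% of all windows) were called lower in D2 and the median difference was -1.52. In sets 2 and 3, with 3 B6 mice in the one and 4 D2 mice in the other, 11521 windows (99.4%, against 14.4%) were called and the median was -1.56. The D2 mice lay below all B6 mice at 98.7% of the chosen windows in set 1 (all windows, 22.5%) and at 98.6% in sets 2 and 3 (all windows, 15.9%).

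D2 kept part of the signal. Summed over the 6 mice, the median chosen window had 267 reads in B6 CORT+DFP and 102 in D2 CORT+DFP mice. Corrected for depth, the D2 reads were 32.2% of the B6 reads at the median window, and between 14.1% and 52.5% at the middle 90% of windows. The D2 CORT+DFP mean was 2.0 or more at 11203 windows (96.7%, as at 96.7% of autosomal windows). Both thresholds were passed again at 9944 (85.8%, against 5.96% of autosomal windows). Mice of the same group differed by little more than counting error. The median SD was 0.33 among D2 and 0.23 among B6 CORT+DFP mice, where the read numbers alone give 0.32 and 0.21. Reads amplified from the same fragment are not independent, so these SDs cover counting error only.

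The B6 control mean, which the selection used, had a median of 4.65 and lay between 4.0 and 5.0 at 9542 windows (82.4%, against 82.0% of autosomal windows). A mean of 6.0 or more was found at 235 windows, 2.03% of those chosen and 0.632% of autosomal windows. The windows just inside the threshold for the difference had B6 and D2 control means of 4.77 and 3.77 (chr16:58239451-58239600), 4.57 and 3.57 (chr11:64797001-64797150), and 4.22 and 3.22 (chr17:6993451-6993600, in Rnaset2b, a ribonuclease gene). Those just outside had 5.34 and 4.34 (chr3:6302251-6302400), 4.52 and 3.52 (chr13:67647151-67647300), and 4.33 and 3.33 (chr12:40844251-40844400, in Dock4, a Rac and Rap regulator). At the threshold for the D2 level, the 3 windows inside had D2 means of 2.00004 to 2.00077 and B6 means of 4.30 to 5.96. The 3 outside had D2 means of 1.99932 to 1.99935 and B6 means of 4.67 to 5.22.

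The widest gap between the control strains was at chr10:3112651-3112800, an intergenic window with 2 CpGs. The B6 controls were at 8.04, 8.17, 8.33, 8.41 and 8.97 log2 RPKM, and the D2 controls had a lowest, median and highest value of 1.17, 2.25 and 2.88. In CORT+DFP mice the lowest, median and highest values were 7.13, 8.40 and 9.23 in B6 and 1.54, 2.20 and 3.10 in D2. The strains were far apart in both treatments, with a CORT+DFP difference of -5.76 ± 0.22 (SE, limma adjusted p = 8.23e-20). The exact permutation test gave p = 0.00216 (two-sided, 6 against 6 mice), the smallest it can give, and D2 had 1.21% of the B6 reads.

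Another window, chr4:118547851-118548000, lay 3807 bp from Tmem125, a transmembrane protein gene. Its B6 controls were at 11.28, 11.30, 11.35, 11.45 and 11.46, and its D2 controls had a lowest, median and highest value of 6.00, 6.57 and 6.77. The CORT+DFP values were 11.34, 11.43 and 11.72 in B6 and 6.07, 6.62 and 7.16 in D2. Here even the D2 mice lay above the autosomal median, and the difference was -4.75 ± 0.12 (SE, limma adjusted p = 1.07e-23). Its neighbour at chr4:118548001-118548150 differed by -4.63. The other windows among the 8 with the widest control gaps differed by -4.63 (chr8:20946451-20946600, 1741 bp from AY761185), -4.35 and -4.58 (both in Tmem267), and -3.95 and -4.53 (chr6:47756851-47757000 and chr6:47743351-47743500, 39141 and 52641 bp from Pdia4, a protein disulfide isomerase). At all 8, every D2 mouse lay below every B6 mouse in CORT+DFP (exact permutation test, p = 0.00216 each). Such separation was found at 95.9% of all chosen windows and 12% of all windows.

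The windows that kept the highest D2 level lay in 2 places. Those at chr11:3193201-3193800, in Drg1, a GTP-binding protein gene, and partly in Sfi1, a centrosome protein gene, are 4 windows in a row. At chr11:3193351-3193500 the B6 controls were at 10.88, 10.97, 11.04, 11.05 and 11.08 and the D2 controls had a lowest, median and highest value of 8.91, 9.37 and 9.55. Under CORT+DFP, lowest, median and highest were 10.79, 10.89 and 11.03 in B6 and 9.43, 9.50 and 9.59 in D2, with no overlap. The 4 windows differed by -1.55 to -1.37 in CORT+DFP mice, and D2 had 34.6% to 38.8% of the B6 reads. The other 4 lay between chr17:39844651 and chr17:39848550, in Gm26917 and Gm42418. They differed by -1.08 to -0.87 with 47.9% to 55.5% of the B6 reads (exact permutation test, p = 0.00216 at each of the 8). All 8 lay far above the autosomal medians of 4.38 to 4.50 in both strains, and the number of copies of these sequences was not tested.

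Chosen windows were rarer in genes than other windows. Of the chosen windows 33.1% lay in a gene and 7.16% in an exon, against 49.7% and 25.7% of autosomal windows. A coding exon held 330 (2.85%, against 19.6%) and a UTR 124 (1.07%, against 5.20%). The promoter region, from 1000 bases before to 500 after the start of a protein-coding gene, held 114 (0.984%, against 1.20%). The other 66.9% lay between genes, against 50.3%. The share of windows that were chosen rose with their CpG number, from 3.76% of windows with 1 or 2 CpGs to 11.2% of those with 15 to 34. The median was 7 CpGs in chosen and 6 in all autosomal windows. The size of the difference hardly changed with CpG number, with medians of -1.65 to -1.50.

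Sequence that occurs more than once was common among the chosen exonic windows. Of 480 chosen windows that lay wholly in exons, 325 (67.7%) held a run of 50 bases also found in another tested exonic window or in a transcript of another gene, against 18.4% of the 27682 autosomal windows of this kind. Among windows wholly in coding sequence the run was present in 109 of 125 (87.2%), against 7.23% of 15215. Reads of such copies can be placed at either, so single windows in them are uncertain. The 109 windows lay in 36 genes, with 5 to 7 each in Gm13696, Gm13698, Gm13694, Gm27179, Gm13693, Flg, Tmem267, the kinase gene Smok2b, the protocadherin gene Pcdhgb1 and the placental fusion gene Synb. Exonic windows with a shared run had a median CORT+DFP difference of -1.44 and those without one of -1.20. The part of the repeated sequence in the strain difference was not tested, and windows outside exons could not be compared in this way.

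**Figure D2:**
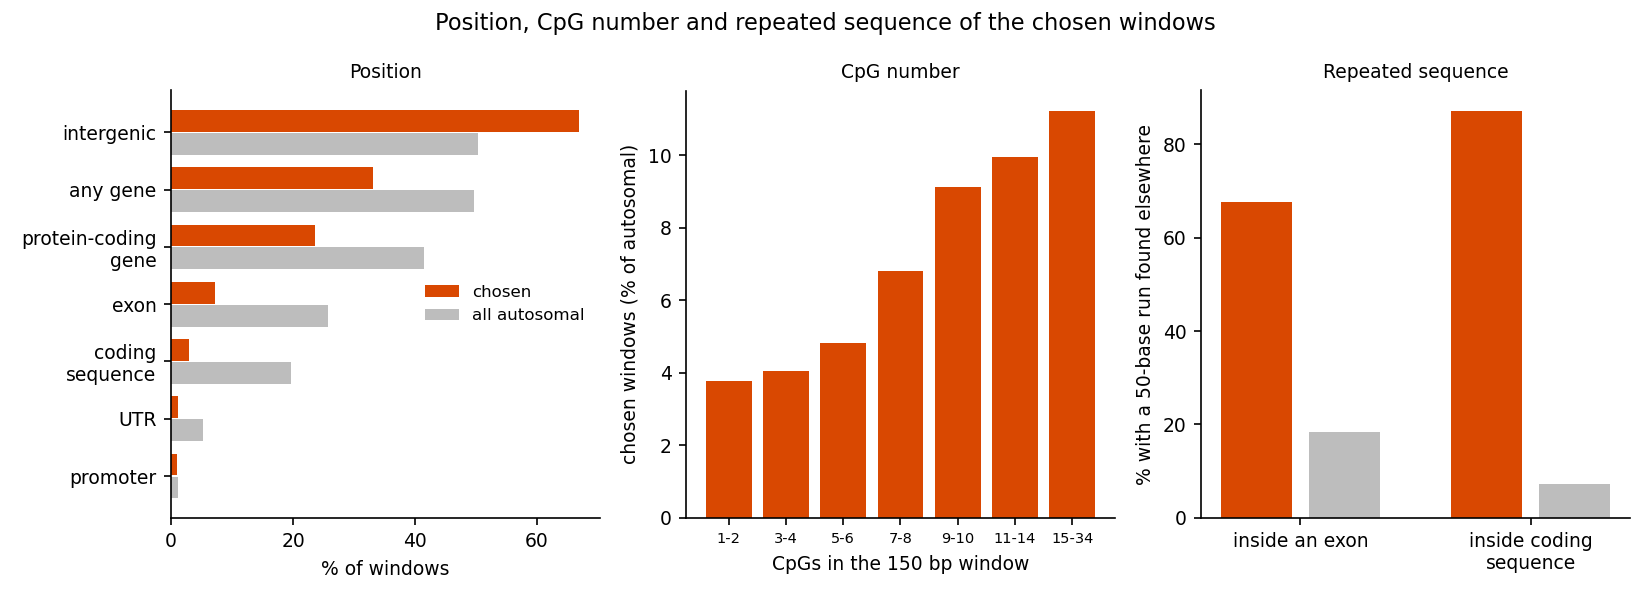
Percent of chosen windows (orange) and of all autosomal windows (grey) by position, percent of autosomal windows that were chosen by CpG number, and percent with a 50-base run also found elsewhere. Chosen windows lay less often in exons (7.16% against 25.7%) and, when wholly coding, held a repeated run more often (87.2% against 7.23%).

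The remaining 16 windows wholly in coding sequence had no such run. They lay in 12 genes, and all 16 were called lower in D2 CORT+DFP mice by limma, against 15.9% of all windows. At 12 of the 16 the strains did not overlap, against 95.9% of the chosen windows and 12% of all windows. The differences at the 16 windows lay between -2.13 and -0.60, with a median of -1.15. The largest was in the protocadherin gamma cluster, whose genes encode cell adhesion proteins of neurons, at an exon of Pcdhgb5. There the B6 controls were at 5.03, 5.20, 5.22, 5.32 and 5.36, and the D2 controls had a lowest, median and highest value of 2.45, 2.80 and 3.10. The CORT+DFP values were 4.82, 5.04 and 5.36 in B6 and 2.73, 2.90 and 3.23 in D2 (-2.13 ± 0.16 SE, limma adjusted p = 5.76e-13), so the strains were apart in both treatments.

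At the Tescl window printed above, the B6 controls were at 4.32, 4.34, 4.55, 4.59 and 4.64, and the D2 controls had a lowest, median and highest value of 1.68, 2.42 and 2.998. With CORT+DFP, lowest, median and highest were 3.86, 4.50 and 4.94 in B6 and 2.08, 2.52 and 3.09 in D2. The strains did not overlap, the difference was -1.91 ± 0.21 (SE, limma adjusted p = 5.01e-09), and a second Tescl window differed by -1.68. The Neurl1b window, the one richest in CpGs of those printed, had B6 controls at 4.46, 4.52, 4.55, 4.72 and 4.85 and D2 controls from 2.87 over 3.21 to 3.85. Its CORT+DFP values were 4.35, 4.52 and 4.73 in B6 and 2.61, 3.20 and 3.70 in D2. No mouse of one strain reached the other, the difference was -1.26 ± 0.19 (SE, limma adjusted p = 1.6e-06), and 2 more Neurl1b windows differed by -1.40 and -1.13. Smok2a, a sperm motility kinase gene, had 2 windows at -1.62 and -1.46. Single windows lay in Gm5678 (-1.17), Fan1, a DNA repair nuclease (-1.06), Fam170b (-0.88), Dhx34, an RNA helicase (-0.84), Arhgef10l (-0.74), D630045J12Rik (-0.64), Camkk1 (-0.62) and Afg3l2, a mitochondrial protease (-0.60).

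The Camkk1 window was the least secure of those printed. The B6 controls were at 4.31, 4.46, 4.46, 4.62 and 4.74, and the D2 controls had a lowest, median and highest value of 3.05, 3.38 and 3.71. Among CORT+DFP mice the values were 3.67, 4.29 and 4.62 in B6 and 3.05, 3.45 and 4.02 in D2, so the strains overlapped. The difference was -0.62 ± 0.20 (SE, limma adjusted p = 0.0204), with an exact permutation test of p = 0.0173 (two-sided, 6 against 6 mice). The difference was -0.52 without B6 CORT+DFP replicate 4 (limma adjusted p = 0.0895), -0.56 without B6 CORT+DFP replicate 5 (0.0751) and -0.54 without D2 CORT+DFP replicate 4 (0.05). In set 1 alone, without age in the model, it was -0.42 (limma adjusted p = 0.357).

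**Figure D3:**
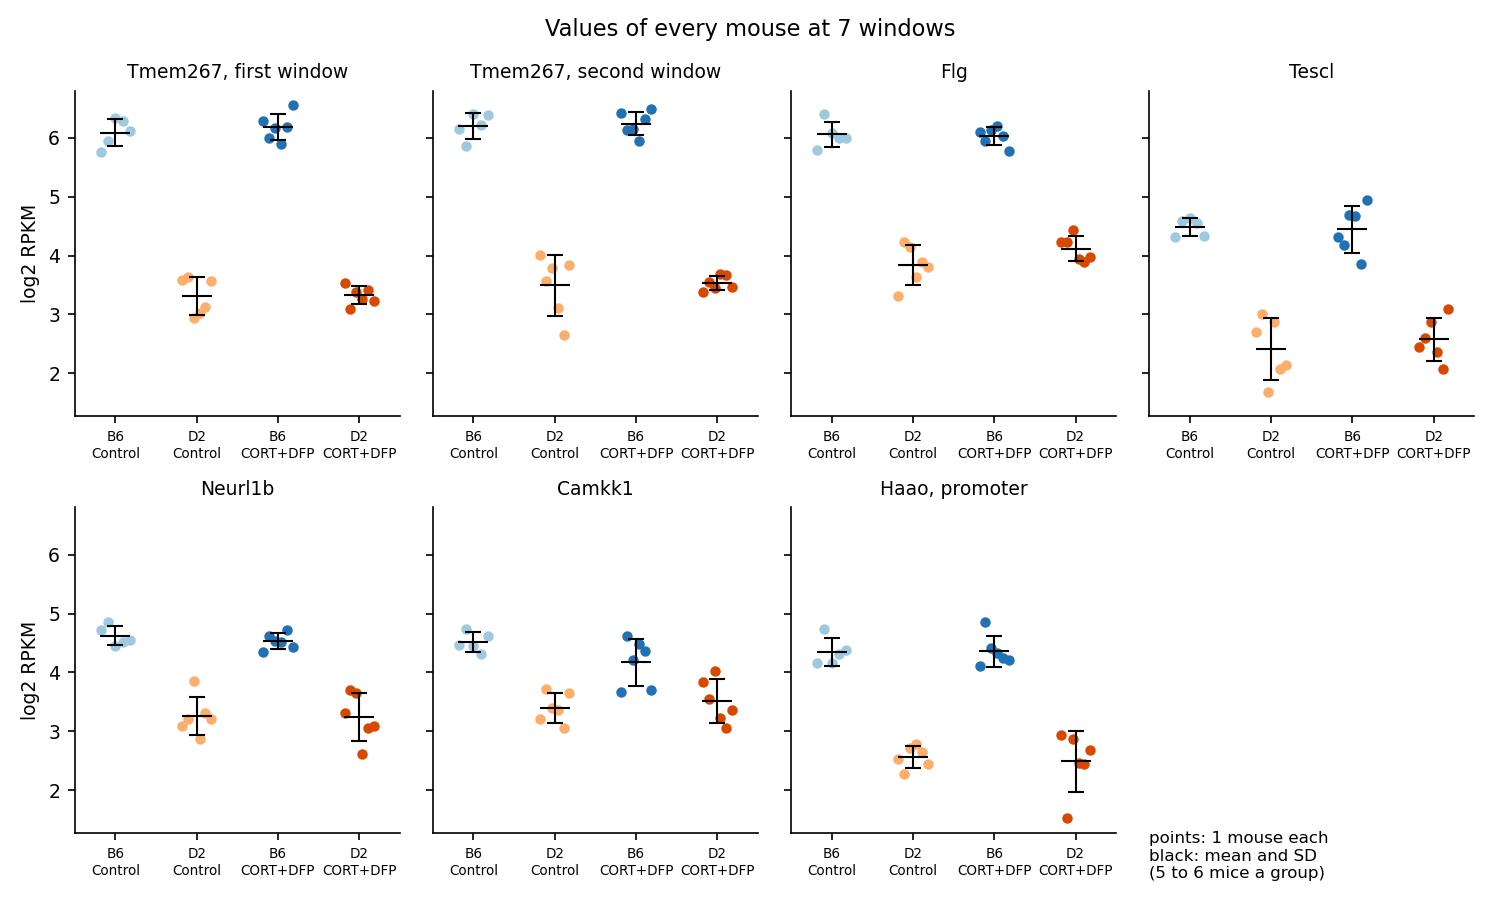
Log2 RPKM of each of the 23 mice (points) at 7 windows, by strain and treatment, with the mean and SD of each group in black. D2 mice lie below B6 mice in both treatments at each window, except at Camkk1, where CORT+DFP mice of the strains overlap.

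Tmem267 held the most chosen windows of any protein-coding gene, 38 of 70 tested. All 38 were called lower in D2 CORT+DFP mice, as were 99.8% of all chosen windows and 15.9% of all windows. The strains did not overlap at any of the 38 (95.9% of chosen windows, 12% of all windows), and their median difference was -2.64. Another 20 windows of the gene were lower by 1.0 or more in controls with a D2 mean under 2.0, so they were not chosen. Of all 70 windows 66 were called lower, and 4 were not. Of these 4, 2 side by side at the far end were called higher in D2 CORT+DFP mice, by 0.75 ± 0.16 and 1.14 ± 0.16 (SE, limma). The chosen windows lay at both ends of the 123 kb gene, 12 of the 26 windows tested in its first 10 kb and 26 of the 44 tested beyond 100 kb. No window in between was tested.

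At the first Tmem267 window printed above, the B6 controls were at 5.76, 5.95, 6.12, 6.29 and 6.34, and the D2 controls had a lowest, median and highest value of 2.94, 3.35 and 3.64. The CORT+DFP values were 5.90, 6.18 and 6.56 in B6 and 3.10, 3.33 and 3.53 in D2. The D2 mice had 12.3% of the B6 reads, and the difference was -2.88 ± 0.13 (SE, limma adjusted p = 3.63e-18). The second window, with nearly the same sequence, gave nearly the same values. Its B6 controls were at 5.87, 6.15, 6.21, 6.39 and 6.42, its D2 controls had a lowest, median and highest value of 2.64, 3.68 and 4.01, and its CORT+DFP difference was -2.73 ± 0.12 (SE, limma adjusted p = 1.9e-18). The 6 coding windows with the widest control gaps were all in Tmem267, and differed by -3.10 to -2.71 in CORT+DFP mice.

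**Figure D4:**
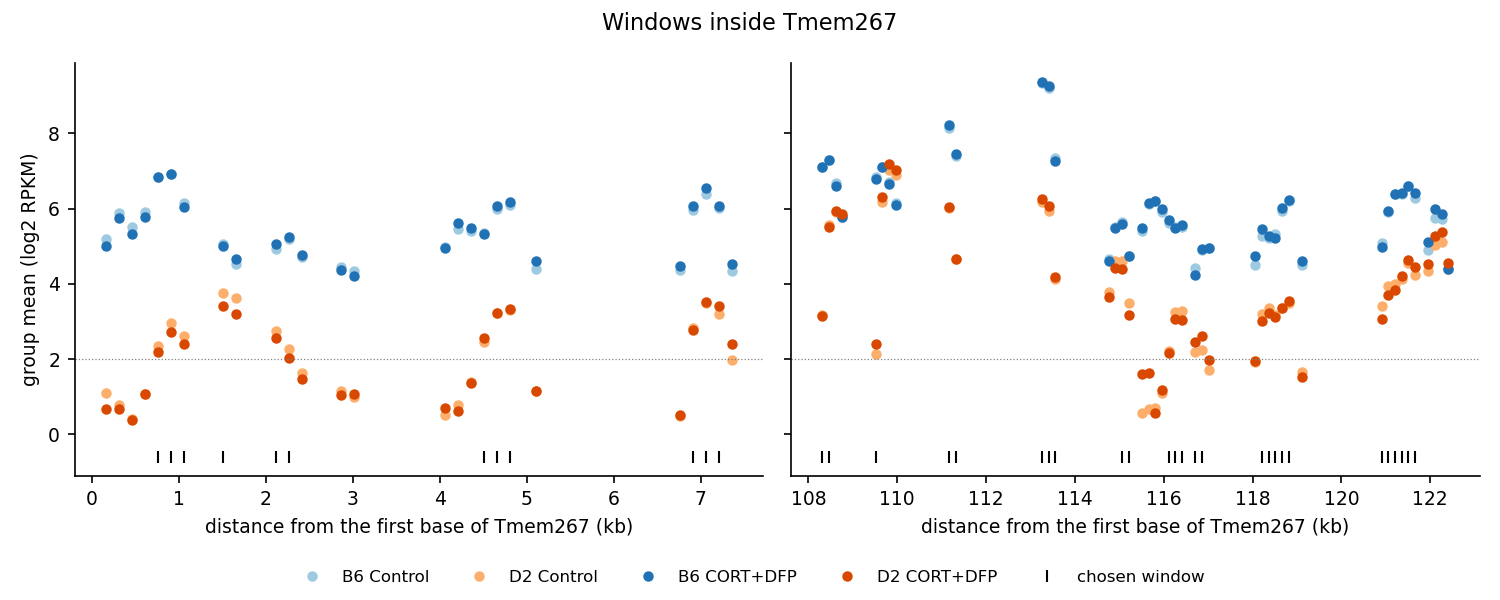
Mean log2 RPKM of the 4 groups at the 70 windows tested in Tmem267, by distance in kb from the first base of the gene; ticks mark the 38 chosen windows and the dotted line a level of 2. The B6 groups lie above the D2 groups at most windows of both ends, and 2 windows of the far end were called higher in D2 CORT+DFP mice.

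At the Flg window, where 15 other windows share sequence, the B6 controls were at 5.80, 6.00, 6.01, 6.09 and 6.40 and the D2 controls had a lowest, median and highest value of 3.31, 3.84 and 4.23. The same values in CORT+DFP mice were 5.78, 6.06 and 6.20 in B6 and 3.88, 4.10 and 4.43 in D2. The strains lay apart, with a difference of -1.87 ± 0.11 (SE, limma adjusted p = 3.24e-15) and 24.9% of the B6 reads in D2.

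Besides Tmem267, the genes with the most chosen windows were Tcp10c, a t-complex gene (26 of 30 windows, median difference -1.50), and the zinc finger gene Zfp981 (23 of 46, -1.77). They were followed by 2210408I21Rik (21 of 72, -1.62), the mitochondrial peptidase Immp2l (19 of 60, -1.34) and the calcium-binding membrane protein Mctp1 (18 of 45, -1.58). Lrp1b, an LDL receptor relative (18 of 104, -1.38), and the receptor kinase Grk5 (16 of 47, -1.94) completed the 8. In Tcp10c, 10 of the chosen windows lay in coding exons. The strains did not overlap at 21 of the 26, against 95.9% of all chosen windows and 12% of all windows. At least 1 chosen window lay in 977 of 10789 protein-coding genes with a tested window (9.06%), 387 of these had 1 and 38 had 10 or more.

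At promoters, the largest control gaps were at 3 windows of Tmem267 that also lie at the start of 3110070M22Rik (-4.58, -4.13 and -3.60 in CORT+DFP mice). The next were at Gm32717 (-2.24), Gm13271 (-2.23), Extl1, a glycosyltransferase of heparan sulfate synthesis (-2.27), Gm11127 (-2.47) and Sfi1 (-1.97). At all 8 the strains did not overlap (exact permutation test, p = 0.00216 each), as at 95.9% of all chosen windows and 12% of all windows. Of 31396 autosomal RefSeq promoters, 250 bases before to 50 after a start, 800 were reached by a tested window and 43 by a chosen one. The median of CG dinucleotides was 7 in all of these promoters, 10 in those reached by a tested window and 14 in those reached by a chosen one.

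The Haao promoter window had B6 controls at 4.16, 4.16, 4.31, 4.37 and 4.74, and D2 controls with a lowest, median and highest value of 2.26, 2.59 and 2.79. The CORT+DFP values were 4.11, 4.28 and 4.85 in B6 and 1.52, 2.57 and 2.94 in D2. No D2 mouse reached the B6 range, the difference was -1.86 ± 0.22 (SE, limma adjusted p = 2.38e-08), and D2 had 25.3% of the B6 reads. The measured window holds 9 CpGs. The 250 bases printed above, of which it covers only the last 60, hold 6.

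In 4 lists of genes, 8 of 651 windows were chosen (1.23%). Of autosomal windows in protein-coding genes 3.36% were chosen, and of all autosomal windows 5.92%. In the lists, 28 windows were called lower and 93 higher in D2 CORT+DFP mice. Over all autosomal windows, inside genes or not, 16.5% were called lower and 10.8% higher. Of the 93, 42 lay in Alad, an enzyme of heme synthesis, and Glo1, the glyoxalase gene, which had 21 each. Of the genes known to vary between the strains, the synaptic scaffold Mpdz had 2 chosen windows, at -1.996 and -1.60 (2 of 151 windows of the list). Of the synapse genes, Syt1, the calcium sensor of vesicle release, had 1 at -1.86, and the postsynaptic scaffold Dlgap2 had 3 at -1.86, -1.41 and -1.17 (4 of 288). Of the stress and cholinesterase genes, Ces1c, a plasma carboxylesterase, had 1 at -1.69 (1 of 79). At these 7 windows the strains did not overlap in CORT+DFP mice, as at 95.9% of all chosen windows and 12% of all windows. Of the DNA methylation machinery, the methyl-CpG-binding protein gene Mbd1 had 1 (1 of 133), at -0.60 ± 0.16 (SE, limma adjusted p = 0.00285, exact permutation test p = 0.00649). In set 1 alone, without age in the model, the Mbd1 difference was -0.49 with an adjusted p of 0.16.

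Tested windows lie close together in general, and 91.3% of the autosomal ones had another within 1000 bp. Joined when at most 1000 bp apart, the chosen windows formed 5461 groups, of which 2640 were single windows and 48 held 10 or more. The groups of at least 2 held 8946 windows (77.2%). The largest, chr4:147221251-147227550 near the zinc finger gene Zfp991, held 41 windows, all 41 tested there, with a median CORT+DFP difference of -1.84 and no overlap of the strains at any. The next were at chr6:47758501-47764350 (22 of 31 tested windows, -1.57), chr5:94713601-94717950 (21 of 27, -1.23), chr6:47751301-47757450 (20 of 28, -2.17) and chr3:6302401-6306450 (19 of 27, -1.31). All windows of these 5 groups were called lower. Over all chosen windows 99.8% were called lower and the strains did not overlap at 95.9%, against 15.9% and 12% of all windows.

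The windows beside a chosen one were often chosen or lower too. Of those 150 bp away 59.6% were chosen themselves, against 5.92% of autosomal windows. The median difference in CORT+DFP mice was -1.41 at the 13584 windows 150 bp away. Of these 95.03% were called lower, against 16.5% of autosomal windows. Leaving out neighbours that were chosen themselves, the median difference was -0.85 at 150 bp (5486 windows, 87.9% called lower). It was -0.58 at 300 bp, -0.39 at 450 bp and -0.30 at 4500 bp, where 44.8% were called lower. Fragments can reach into the adjacent window, so neighbours at 150 bp share reads in part.

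**Figure D5:**
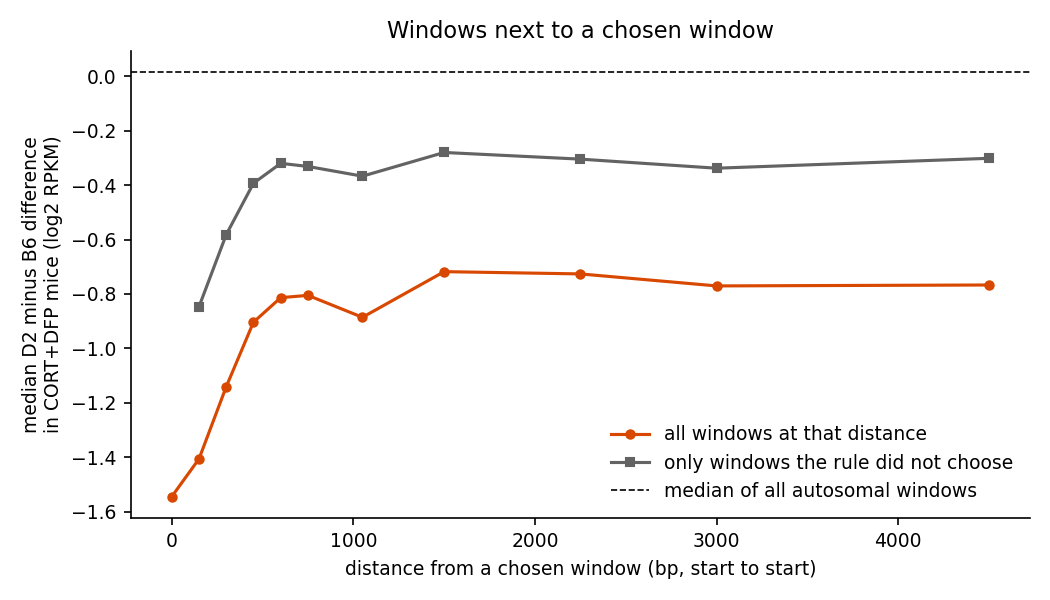
Median D2 minus B6 difference in log2 RPKM in CORT+DFP mice at windows beside a chosen window, by distance in bp, with and without neighbours that were chosen themselves. It shrinks from -1.41 at 150 bp to -0.81 at 600 bp over all neighbours, and from -0.85 to -0.32 over those not chosen, and shows no steady change beyond.

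Large parts of the autosomes held none. There were 559 stretches of 1 Mb or more without a chosen window, 1476 Mb in all with 55.6% of the autosomal windows. In them 4.12% of windows were called lower and 12.1% higher in D2 CORT+DFP mice. Outside them, with the chosen windows left out, 21.6% were lower and 10.5% higher. The stretches were drawn by where chosen windows were missing, so these shares are not independent of the selection. The longest, chr9:13534951-32839200, had 1491 windows, with 17 lower and 216 higher. Among 1 Mb bins with at least 20 windows, 928 of 2341 (39.6%) had none, and 228 bins (9.74%) held 50% of the chosen windows. The densest was chr17:13000001-14000000, which includes Tcp10c, with 242 of 406 windows (59.6%). By chromosome, the share ran from 3.04% (287 windows) on chromosome 9 to 8.84% (732) on chromosome 14.

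Treatment was compared within each strain with all 23 mice, in the study's regression of treatment, strain, their interaction, sex and age. The controls of this comparison also chose the windows, so the counts are a description. No chosen window differed between treatments in limma at an adjusted p under 0.05 in B6, in D2 or in the interaction, and none of all windows did. At an unadjusted p under 0.05 there were 255 in B6 (2.20%), 1077 in D2 (9.30%) and 599 for the interaction (5.17%), against 5.92%, 5.33% and 7.15% of all windows. At the study's threshold of p at most 0.0001, the counts were 0 in B6 (all windows, 0.0109%), 5 in D2 (0.0128%) and 0 for the interaction (0.0109%). The median CORT+DFP minus control estimate was 0.02 in B6 and 0.03 in D2 at the chosen windows.

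All 5 windows that passed this threshold in D2 were higher in CORT+DFP than in control D2 mice, with adjusted p-values of 0.519 to 0.668. The smallest p was in Rere, a gene of nuclear receptor coregulation (chr4:150514951-150515100). The lowest, median and highest values were 1.53, 2.24 and 2.83 in D2 controls and 2.94, 3.03 and 3.39 in D2 CORT+DFP mice. These groups did not overlap, and the difference was 0.93 ± 0.19 (SE, limma adjusted p = 0.519), with -0.18 in B6. The other 4 were in Asap2, an Arf GTPase-activating protein (0.80 ± 0.18), Luzp2 (0.79 ± 0.18), Tbc1d22a, a gene of the Rab GTPase-activating family (0.71 ± 0.16), and near Tgif2, a homeobox repressor (0.58 ± 0.13). Their B6 differences were 0.04, -0.12, 0.13 and -0.08. Low values in D2 controls helped to select these windows, so this difference is not independent of the selection.

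Sex was not used to select the windows. Between CORT+DFP males and females, with strain and age in the model, 21 chosen windows differed at an adjusted p under 0.05 in limma (0.181%), against 0.116% of autosomal windows.

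The 19 windows not called lower in CORT+DFP mice were lower by means all the same. The smallest fitted differences were at chr7:59736601-59736750 (-0.13, limma adjusted p = 0.842), in Arhgap26 (-0.14, adjusted p = 0.713), and at chr17:77232751-77232900 (-0.20, adjusted p = 0.363). Next were a coding exon of Tbc1d30, another gene of the Rab GTPase-activating family (-0.26, limma adjusted p = 0.263), and chr6:114522301-114522450 (-0.28, adjusted p = 0.32). At Arhgap26 the B6 controls were at 4.41, 4.55, 4.59, 4.64 and 4.67, and the D2 controls had a lowest, median and highest value of 3.03, 3.43 and 3.76. The same values in CORT+DFP mice were 3.48, 3.92 and 4.18 in B6 and 2.98, 3.59 and 4.53 in D2, so the strains were apart in the controls that chose the window and overlapped in CORT+DFP mice.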

How the data were processed

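MBD-seq libraries of 23 mice were analysed from the values the authors deposited, log2 RPKM per 150 bp window, beside each window's number of CpGs. Per the labels and the methods, the authors aligned reads to GRCm38 (mm10) with STAR 2.5.0a, counted them with MEDIPS, filtered and normalized them by library size with edgeR 3.34.1 and annotated windows with HOMER. No reads were realigned. The deposited log2 values were found to be whole read numbers with about 2 reads per mouse (mean) added before the logarithm. Under 200 reads 100% of values were whole within 0.1. The recovered reads gave depth and counting error only, and no count test was run on them. Every sample column was mapped, with 0 left over.

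Groups came from the labels, and replicates are separate mice. Strain and sex in CORT+DFP mice were fitted on all 210191 windows with limma 3.58.1 in R 4.3.3 (trended variance, covariates age and either sex or strain), and treatment in all 23 mice. P-values were Benjamini-Hochberg adjusted over all windows, except that sex was counted on autosomal windows. Single windows were also tested by two-sided exact permutation of 6 against 6 mice (scipy 1.17.1, Python 3.11.15, 924 arrangements). Called lower means a limma adjusted p under 0.05.

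The windows and gene lists were chosen with earlier results of these data known. Windows named were the 8 with the widest control gap, the 8 with the highest D2 level, those beside each threshold, the 8 genes with the most windows, the 8 promoter and 6 coding windows with the widest gap, the 5 largest groups, windows in 4 gene lists, those at a treatment p of 0.0001 or less and the 5 with the smallest CORT+DFP difference. Coding windows without a repeated run, the windows whose sequence is printed and Haao were named after their values were seen. Positions came from GENCODE M21, and promoters from RefSeq (GRCm38.p6). The sequence comparison used exons only. Scripts were tested on simulated data. Alternatives were other thresholds, log2(RPKM + 1), median centring, quantile normalization, a filter on low values, ordinary least squares, other covariates, single sets and each mouse left out.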

Additional observations from a re-analysis of the deposited data

Results flagged for a closer look

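In 104 groups of mice over 25 of the named windows and the per-mouse medians, 3 had a mouse far from the rest by Dixon's ratio, where chance flags about 1 in 20 groups. At the Tmem267 window chr13:119488801-119488950, B6 CORT+DFP replicate 6 was at 7.18 log2 RPKM, with the other 5 between 6.68 and 6.81. In the coding exon of Tbc1d30 (chr10:121272151-121272300), B6 Control replicate 1 was at 4.04, with the others between 4.64 and 4.83. In the Haao promoter window (chr17:83846701-83846850), D2 CORT+DFP replicate 2 was at 1.52, with the others between 2.44 and 2.94. All 3 windows kept the D2 value below the B6 value by means in CORT+DFP mice.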

How the results depend on the processing

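Asking for other control values changed which windows were described. With a difference of 0.8 the median CORT+DFP difference was -1.36 and 34.5% lay in genes. With 1.5 there were 6176 windows, 6175 called lower, a median of -1.93 and 31.0% in genes. With a D2 mean of 1.0 the median was -1.75 and 31.4% lay in genes, and with 3.0 there were 6265 windows, 6250 called lower, a median of -1.28 and 35.2% in genes. The median was -1.44 on log2(RPKM + 1) and -1.22 after quantile normalization, and the cause of these shifts was not tested. Quantile normalization chose 12252 windows, which shared 8765 with the 11586, and the strains then did not overlap at 10147 of the latter (87.6%). At neighbours 150 bp away it was -0.85 without those that were chosen. Of 136 such settings, 110 moved their result by less than the limits set. Leaving out each mouse gave 11532 to 11838 windows, 11528 to 11574 called lower and medians of -1.56 to -1.52. Windows past the treatment threshold then numbered 2 to 9: 9 without D2 CORT+DFP replicate 4 or 5, 2 without D2 Control replicate 3, and 3 without D2 CORT+DFP replicate 2, D2 Control replicate 2, B6 CORT+DFP replicate 3 or 5, or B6 Control replicate 1, 3 or 5. Windows with a sex difference numbered 14 to 37, with 37 without B6 CORT+DFP replicate 1 and 14 without D2 CORT+DFP replicate 5. Among the 52 named windows, direction turned at 4 that were not called. In set 1 alone the differences were 0.21 at Arhgap26, 0.030 at chr17:77232751 and 0.050 at chr6:114522301. With 1 mouse left out, they ran from -0.40 to 0.011 at Arhgap26 and from -0.81 to 0.16 at chr7:59736601. In set 1 alone, which leaves 5 mice and a model without age, Camkk1 (-0.42), Mbd1 (-0.49), Luzp2 (-0.68) and the window near Tgif2 (-0.53) were not called, against -0.62, -0.60, -0.59 and -0.55 with all 12 mice. At chr6:114522301, leaving out D2 CORT+DFP replicate 2 gave an adjusted p of 0.0332 in limma. D2 mice had 11 to 23 reads at the median chosen window, which limits single values. No paired analysis was possible because replicate numbers only follow the order of the samples and mark no shared animal or day.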

Other observations

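The X chromosome was not part of the choice of windows. There, 276 of 14416 windows (1.91%) met both thresholds in the controls, against 5.92% on the autosomes. In CORT+DFP mice every D2 mouse lay below every B6 mouse at 223 of the 276, against 12% of all windows of the series. The share over all X windows was not counted. The median D2 minus B6 difference at the 276 windows was -1.64. In the mitochondrial genome, 4 windows met both thresholds.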
